A study of Homo sapiens with 6 samples.

Results

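The homeodomain-interacting protein kinases HIPK1, HIPK2 and HIPK3 and the dual-specificity tyrosine-regulated kinases DYRK1A, DYRK1B, DYRK2, DYRK3 and DYRK4 were described here, 8 of the 38637 genes in the deposited expression table. They were taken by name, as one kinase family, and the family was chosen by the TPM values of HIPK3, which differed between the groups. The values of HIPK3 are therefore a description without a test, whereas the other 7 genes entered through their names, with earlier results of these data known. HCCLM3-SR was derived from HCCLM3, a human line of hepatocellular carcinoma (HCC), and resists sorafenib, an inhibitor of several kinases. The 3 knockdown libraries came from HCCLM3-SR cells transfected with siRNA against cDCBLD2, a circular RNA made from exons of DCBLD2, and the 3 control libraries from HCCLM3-SR cells transfected with control siRNA. All 6 libraries came from cells that carried the siRNA for 3 days under sorafenib at 5 µM, so neither an arm without the drug nor the parental line was compared. Whether the resistant line is 1 clone, and whether the replicates of a group were separate cultures, is not given in the sources used here, so p-values measure the spread between these libraries, which may be technical.

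HIPK and DYRK kinases are neighbouring branches of the CMGC group of protein kinases. They autophosphorylate a tyrosine in the activation loop while they mature and then phosphorylate serine and threonine in their substrates. HIPKs act mainly in the nucleus, where they phosphorylate p53, the CtBP corepressors and the TCF/LEF factors of Wnt signalling. DYRK1A and DYRK1B favour exit from the cell cycle, DYRK2 primes substrates for degradation, and DYRK3 dissolves condensates of RNA and protein.

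The study asked how cDCBLD2 contributes to sorafenib resistance, and its title names a microRNA, miR-345-5p, and binding to the coding sequence of TOP2A. Matches to this microRNA among the kinases are therefore shown first. The mature sequence from RefSeq (GRCh38.p14, chr14:100307876-100307897, plus strand) is printed with the seed, bases 2 to 8, in capitals.
hsa-miR-345-5p: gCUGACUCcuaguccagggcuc
The seed pairs with GAGTCAG, which was searched on the sense strand of 1 transcript per gene in GENCODE 29 (GRCh38), the annotation used here. A coding match was found in HIPK1 (exon 7, chr1:113957187-113957193, plus strand), HIPK2 (exon 15, chr7:139573038-139573044, minus strand) and DYRK1A (exon 9, chr21:37505364-37505370, plus strand). These 3 coding matches are printed with their flanks, the match in capitals.
HIPK1 coding: tatgatacagtGAGTCAGatcaagagtccc
HIPK2 coding: accatccacccGAGTCAGtatccagcccaa
DYRK1A coding: gacgtgctgggGAGTCAGgtcatacggtcg
HIPK2 also held 2 matches in its 3′ UTR, at chr7:139570759-139570765 and chr7:139563086-139563092, shown because no other member had more than 1 there.
HIPK2 first: agatctttcccGAGTCAGcggccccatcct
HIPK2 second: agcgctgccctGAGTCAGtcggtcccccgt
DYRK1A had a further match in the 5′ UTR and 1 in the 3′ UTR. HIPK3, DYRK1B, DYRK2, DYRK3 and DYRK4 had no match in the transcripts searched. For DYRK3 that transcript has 2163 bases and may be shorter than the one counted. The motif stood in the coding sequence of 3 of 8 members and of 12.8% of the 11803 tested genes with a coding sequence, and a match is a description of letters, not of binding. The 12.8% takes no account of sequence length. HIPK3, the member with the largest difference between the groups, held none, and HIPK1, HIPK2 and DYRK1A each held a coding match. A link between matches and changes was not tested.

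Levels are in TPM, reads divided by transcript length and scaled to a fixed total per library, so genes can be set side by side. All 8 kinases averaged 1 TPM or more over the 6 libraries and were tested. In control cells HIPK2 was the highest at 37.2 ± 1.37 TPM (SD, n = 3), above 71.0% of the 13980 genes tested. HIPK1 at 22.6 ± 0.856 TPM and DYRK2 at 22.4 ± 1.20 TPM followed with overlapping libraries. HIPK3 at 9.81 ± 0.649 TPM and DYRK4 at 8.74 ± 0.279 TPM came next without overlapping each other. DYRK1B at 6.21 ± 0.621 TPM and DYRK3 at 5.12 ± 0.424 TPM overlapped. DYRK1A was the lowest at 2.48 ± 0.177 TPM, above 13.6% of the genes tested. HIPK4, the remaining HIPK gene, lay between 0 and 0.239 TPM and was not tested. In knockdown cells HIPK1 stood below DYRK2 without overlap, and HIPK3 overlapped DYRK3.

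**Figure D1:**
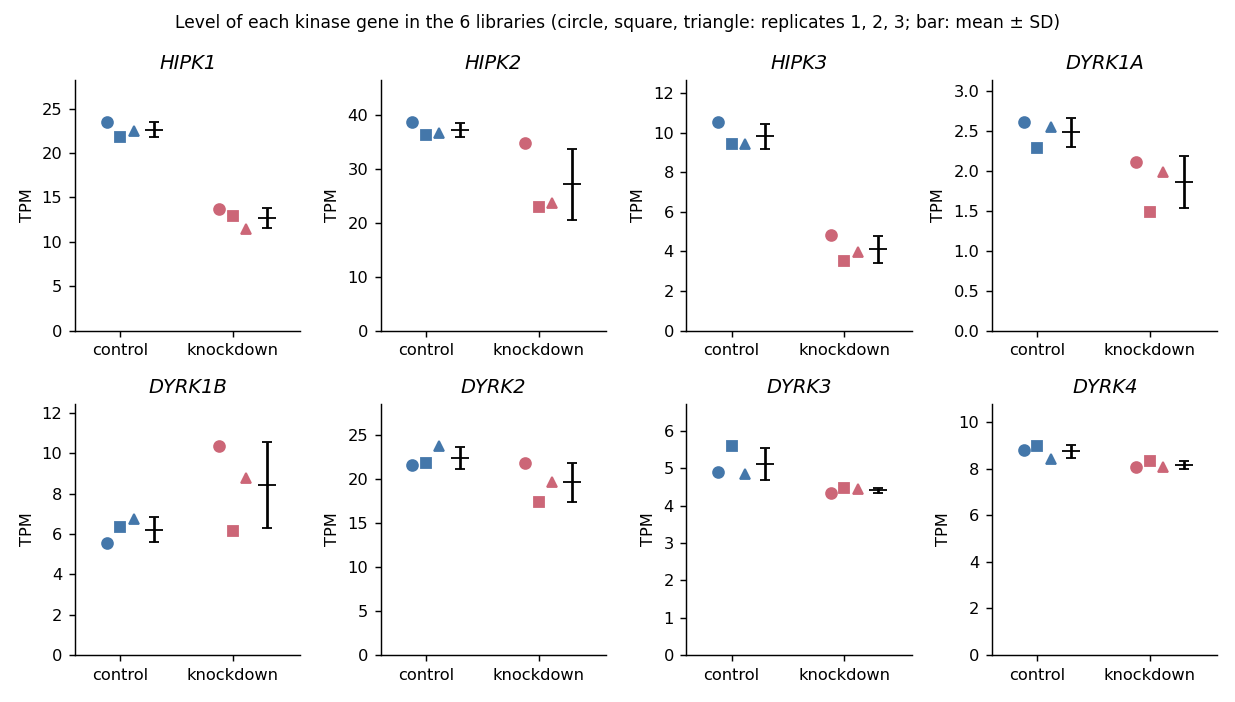
TPM (vertical axes, from 0) of the 8 kinase genes in the 3 control libraries (blue) and the 3 knockdown libraries (red), with circles, squares and triangles for replicates 1, 2 and 3 and black bars for mean ± SD. All 3 HIPK genes and DYRK1A, DYRK3 and DYRK4 lie lower in knockdown without overlap, as do 22.3% of all genes tested. DYRK1B and DYRK2 overlap between the groups, and HIPK3 was chosen for its difference.

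All 3 HIPK genes were lower after cDCBLD2 knockdown, by 44.0% for HIPK1, 27.1% for HIPK2 and 58.2% for HIPK3 in mean TPM, and of HIPK1 and HIPK2 the decrease passed the test across genes for HIPK1. Changes were tested with limma's moderated test on log2(TPM + 1), a scale that understates the change of low genes. Of the 13980 genes tested, 0.629% were lower and 0.250% were higher at an adjusted p under 0.05. HIPK1 and HIPK3 were lower and no member was higher at that threshold, the call of HIPK3 being one the choice of the family used. The median log2 fold change was -0.79 over the HIPK genes, -0.17 over the DYRK genes and -0.08 over all genes tested. The HIPK median is a description, since it takes in HIPK3. HIPK1 was at -0.79 and HIPK2 at -0.47.

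HIPK1 phosphorylates p53, DAXX and other nuclear regulators. On chromosome 1 (chr1:113929192-113977869, plus strand), it had 13.7, 12.9 and 11.4 TPM in knockdown replicates 1, 2 and 3, and 23.5, 21.8 and 22.5 TPM in the control replicates. Every knockdown library was below every control library, by a wide margin against the spread within each group. HIPK1 fell by 0.79 on the log2 scale (SE 0.0957, limma adjusted p = 0.0444), with a 95% confidence interval from -1.02 to -0.56 that is not adjusted for the number of genes. The 3 pairs of same-numbered libraries differed by -0.74, -0.72 and -0.92 on the same scale. An exact two-sided permutation test of 3 against 3 libraries gave p = 0.1, the smallest it can give. Between 848 and 1607 reads were recovered for HIPK1 per library. Leaving out any library other than knockdown replicate 1 ended the call, with limma adjusted p up to 0.222 and a log2 fold change between -0.82 and -0.72, and removing a trend with transcript GC content gave -0.54 (limma adjusted p = 0.0526, and 0.00678 with the replicate number as a block, where 12.7% of all genes were lower).

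HIPK2 is a DNA damage kinase that phosphorylates p53 on a serine linked to apoptosis and is held low by the ubiquitin ligases SIAH1, WSB1 and MDM2. It lies on chromosome 7 (chr7:139561570-139777778, minus strand). The knockdown replicates had 34.7, 22.9 and 23.7 TPM, and the control replicates 38.7, 36.2 and 36.6 TPM. Knockdown replicates 2 and 3 were far below the controls, while knockdown replicate 1 was just below the lowest control library. The log2 fold change was -0.47 (SE 0.161, 95% confidence interval -0.85 to -0.08) and did not pass (limma adjusted p = 0.138). With the replicate number as a block the same fold change passed (limma adjusted p = 0.0245), beside 25.0% of all genes that were lower in that fit. Without knockdown replicate 1 it was -0.65 and passed (limma adjusted p = 0.0125), beside 2771 of the 13980 genes that were lower in that fit. HIPK2 shrank to -0.06 once a trend with transcript length was removed (limma adjusted p = 0.718, or 0.560 under the block).

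HIPK3 phosphorylates FADD, and its large second exon is known as the source of an abundant circular RNA, circHIPK3. TPM per gene does not separate a circular from a linear product. On chromosome 11 (chr11:33256672-33357023, plus strand), HIPK3 had 4.84, 3.51 and 3.95 TPM in the knockdown replicates and 10.6, 9.43 and 9.45 TPM in the control replicates. Every knockdown library was far below the lowest control library, against a small spread within each group. The log2 fold change was -1.09 (SE 0.132), the 80th lowest of the 13980 genes tested, and the same-numbered pairs differed by -0.98, -1.21 and -1.08. From 268 to 613 reads were recovered for HIPK3 per library. With the GC-content trend removed the log2 fold change of HIPK3 was -0.69.

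None of the 5 DYRK genes passed the test. Their intervals are given, since a missed threshold does not show that they stayed level. DYRK1A, the kinase on chromosome 21 whose dosage matters in Down syndrome, phosphorylates NFAT factors and the LIN52 subunit of the DREAM complex. DYRK1A (chr21:37365573-37526358, plus strand) had 2.11, 1.49 and 1.98 TPM in knockdown and 2.62, 2.28 and 2.54 TPM in control. The knockdown libraries lay below the controls without overlap, with a log2 fold change of -0.29 (SE 0.141, 95% confidence interval -0.63 to 0.05, limma adjusted p = 0.245). Its sign turned with the GC-content trend removed (0.03) and with the transcript-length trend removed (0.14).

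DYRK1B, a close relative of DYRK1A that supports survival of quiescent cells, was the member with the highest fold change. DYRK1B (chr19:39825350-39834201, minus strand) had 10.4, 6.15 and 8.79 TPM in knockdown against 5.54, 6.35 and 6.76 TPM in control. Knockdown replicates 1 and 3 were above all controls and replicate 2 was among them. Its log2 fold change was 0.36 (SE 0.187, 95% confidence interval -0.09 to 0.81, limma adjusted p = 0.265), and the pairs differed by 0.80, -0.04 and 0.34. No more than 243 reads per library were recovered for DYRK1B.

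DYRK2 primes JUN and MYC for degradation. DYRK2 (chr12:67648338-67665406, plus strand) had 21.9, 17.4 and 19.6 TPM in knockdown and 21.6, 21.9 and 23.8 TPM in control. The groups overlapped, since knockdown replicate 1 was level with the controls. It had a log2 fold change of -0.19 (SE 0.105, 95% confidence interval -0.44 to 0.06, limma adjusted p = 0.303), and of 0.17 with the GC-content trend removed.

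DYRK3, which phosphorylates AKT1S1 and thereby touches mTORC1 signalling, lies on chromosome 1 (chr1:206635536-206684419, plus strand). It had 4.34, 4.47 and 4.44 TPM in knockdown and 4.91, 5.60 and 4.84 TPM in control. The knockdown libraries were below the controls by a small margin, with a log2 fold change of -0.17 (SE 0.108, 95% confidence interval -0.43 to 0.09, limma adjusted p = 0.350). DYRK4, the least studied DYRK, lies on chromosome 12 (chr12:4562204-4615302, plus strand). It had 8.05, 8.34 and 8.09 TPM in knockdown and 8.81, 8.98 and 8.43 TPM in control. This was the smallest difference of the 8 genes, with a log2 fold change of -0.09 (SE 0.0896, 95% confidence interval -0.30 to 0.13, limma adjusted p = 0.561), and it was 0.15 with the GC-content trend removed.

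In all, 6 of 8 members (HIPK1, HIPK2, HIPK3, DYRK1A, DYRK3 and DYRK4) had knockdown libraries below all control libraries, against 22.3% of all genes tested. None had knockdown libraries above all controls, against 9.58% of the genes. HIPK3 is among the 6 and was chosen for its difference. The antisense genes HIPK1-AS1 and DYRK3-AS1 had at most 5 and 10 recovered reads in a library. The strand setting of the counting is not given in the sources used here, so reads of these pairs could not be told apart.

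**Figure D2:**
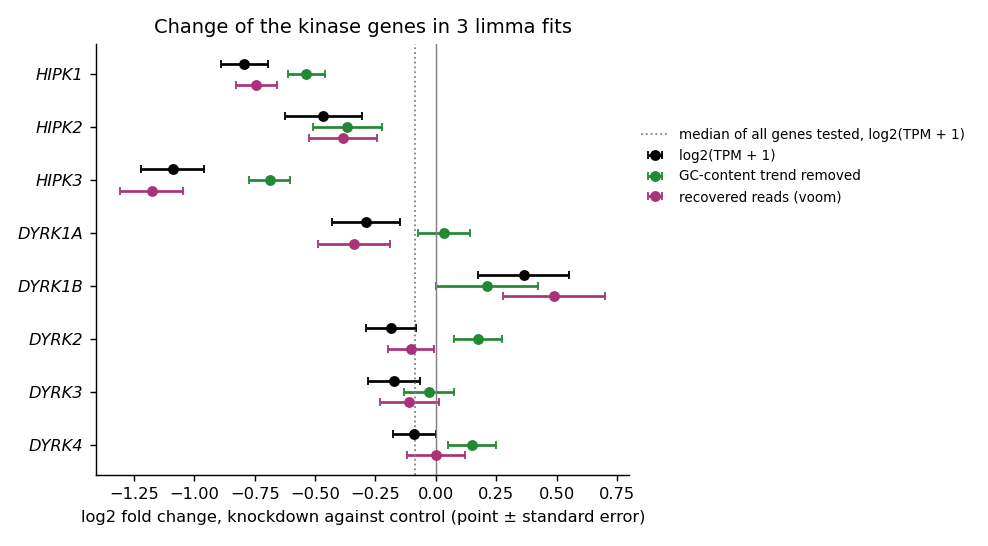
Log2 fold change of knockdown against control (horizontal axis, point ± standard error) of the 8 kinase genes in 3 limma fits, on log2(TPM + 1) in black, with the GC-content trend removed in green and on recovered reads in purple; the dotted line is the median of all genes tested, -0.08. The 3 HIPK genes stay below 0 in all 3 fits, whereas DYRK1A, DYRK2 and DYRK4 change sign in at least 1.

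Summed over the family, HIPK message was 53.3, 39.3 and 39.1 TPM in the knockdown replicates and 72.8, 67.4 and 68.6 TPM in the controls. DYRK message summed to 46.7, 37.8 and 42.9 TPM in knockdown and 43.4, 45.1 and 46.3 TPM in control. The HIPK sums did not overlap between the groups and the DYRK sums did, and since the HIPK sum holds HIPK3 it is given without a test. The ratio of the HIPK sum to the DYRK sum, taken within each library, was 1.03 ± 0.115 in knockdown and 1.55 ± 0.109 in control (SD, n = 3).

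The make-up of both sums differed as well. HIPK3 made up 9.09%, 8.94% and 10.1% of HIPK message in the knockdown replicates and 14.5%, 14.0% and 13.8% in the controls. HIPK2 made up 61.4% ± 3.51 in knockdown and 53.4% ± 0.228 in control, and HIPK1 29.2% ± 3.54 and 32.5% ± 0.267 (SD, n = 3). HIPK2, the most abundant HIPK, thus took a larger part of a smaller sum, and the HIPK1 shares overlapped. Shares add up to a whole, so the lower share of HIPK3, which was chosen for its difference, is part of the rise of HIPK2. In the DYRK sum, DYRK1A made up 4.35% in knockdown and 5.52% in control on average, each library without overlap. DYRK1B made up 19.6% and 13.8%, and DYRK2 46.2% and 49.8%, also without overlap, while the shares of DYRK3 and DYRK4 overlapped. Within the DYRK1 pair, the ratio of DYRK1B to DYRK1A was 4.91, 4.13 and 4.44 in knockdown and 2.12, 2.78 and 2.66 in control, without overlap although neither gene passed alone. With the GC-content trend removed, DYRK1B had a log2 fold change of 0.21 and DYRK1A of 0.03, against 0.36 and -0.29 with the trend kept. These shares were examined after the levels were known and are descriptions. In bulk RNA, fewer cells expressing a gene and less RNA per cell cannot be told apart.

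**Figure D3:**
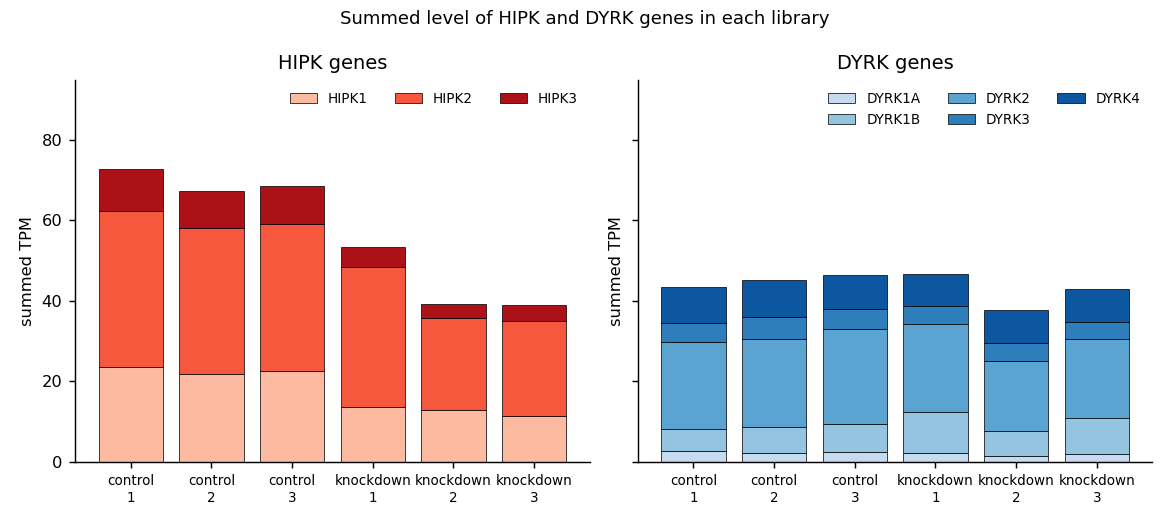
Summed TPM (vertical axes, from 0) of the HIPK genes (left, reds) and the DYRK genes (right, blues) in each of the 3 control and 3 knockdown libraries, stacked by gene. HIPK sums are 67.4 to 72.8 TPM in control and 39.1 to 53.3 TPM in knockdown, while DYRK sums overlap between the groups.

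Fold changes over all genes moved with transcript GC content (Spearman rho 0.64 across 13163 genes, which share the 6 libraries and are not independent). The median log2 fold change was -0.40 in the quintile of genes with the lowest GC content and 0.11 in the highest quintile. HIPK3 (38.9% GC) and DYRK2 (40.8%) lie in the lowest quintile. HIPK1 (44.3%), DYRK1A (42.2%) and DYRK4 (44.8%) lie in the next, with a median of -0.25. HIPK2 (49.1%) and DYRK3 (47.6%) lie in the middle one, with -0.08. The DYRK3 value is that of a transcript of 2163 bases, which may be shorter than the one counted. DYRK1B (65.7%), the gene with the positive fold change, lies in the highest quintile. Against the median of its own quintile HIPK3 was lower and DYRK2 higher, though both are poor in GC. With the trend removed from each library, the median over the HIPK genes was -0.54 and over the DYRK genes 0.15, beside -0.01 over all genes. The HIPK median again takes in HIPK3, and HIPK1 was at -0.54 and HIPK2 at -0.37.

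**Figure D4:**
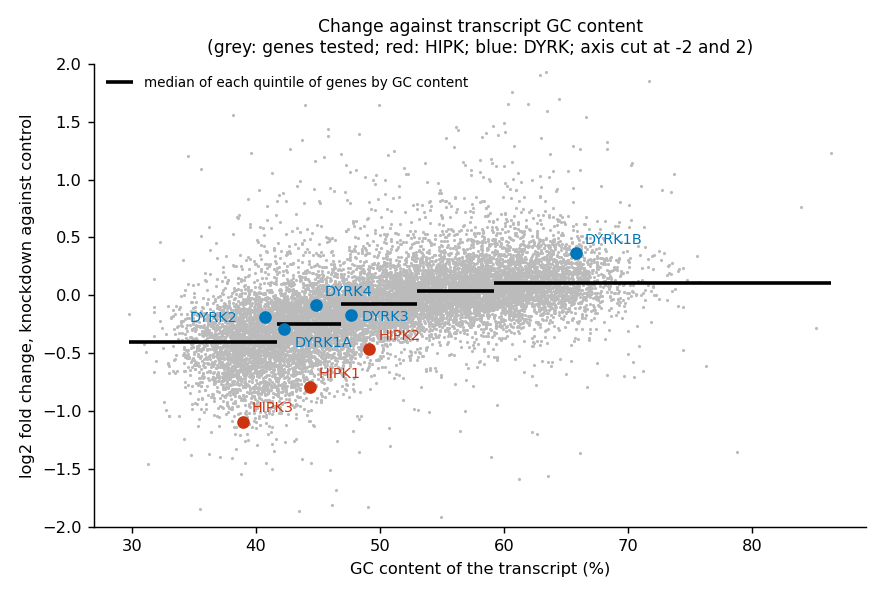
Log2 fold change (vertical axis, cut at -2 and 2) against transcript GC content in percent (horizontal axis) for the genes tested (grey), with HIPK genes in red, DYRK genes in blue and the median of each quintile of genes by GC content as black bars. The quintile medians rise from -0.40 to 0.11, with the HIPK genes below the bar of their quintile.

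The genes these kinases act on or with were described by lists of textbook partners, chosen with earlier results of these data known, of which 65 genes were tested. Of those 65, NFATC3 and RBL2 fell and none was higher at a limma adjusted p under 0.05, beside 20 lower and 3 higher at an unadjusted p under 0.05. Over all genes tested, 19.4% were lower and 6.78% higher unadjusted. With the replicate block, 22 list genes were lower and 6 higher, beside 25.0% and 9.94% of all genes.

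Among HIPK partners and substrates, none of 19 passed, and 2 were lower and 1 higher unadjusted (19.4% and 6.78% of all genes). The median of the list, -0.07, was near that of all genes. TP53INP1, a p53 target that binds HIPK2, had 5.69 ± 0.631 TPM in knockdown and 8.995 ± 1.16 TPM in control (log2 fold change -0.58, limma adjusted p = 0.0774). MDM2, the ubiquitin ligase of p53, had -0.52 with overlapping groups (limma adjusted p = 0.204), and the acetyltransferase EP300 had -0.33 (limma adjusted p = 0.0752). All 3 passed with the replicate block, at limma adjusted p of 0.00841, 0.0124 and 0.0127. With the GC-content trend removed as well, TP53INP1 (-0.19, limma adjusted p = 0.0878) and MDM2 (-0.19, limma adjusted p = 0.114) did not pass, and with the length trend removed EP300 was at 0.0032 (limma adjusted p = 0.971 with the block).

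Of 14 DYRK1 partners and substrates tested, 1 was lower and none higher (0.629% and 0.250% of all genes), with a median of -0.19. NFATC3, a calcineurin-dependent transcription factor that DYRK1 kinases return to the cytoplasm, fell from 28.8 ± 1.68 to 18.7 ± 1.22 TPM (SD, n = 3). This was -0.60 on the log2 scale (limma adjusted p = 0.0451), a call that was lost with the GC-content trend removed (limma adjusted p = 0.0618, and 0.0108 with the block). The splicing factor SF3B1 had -0.72 (limma adjusted p = 0.0892) and the deacetylase SIRT1 had -0.49 (limma adjusted p = 0.133), and both passed with the block, at limma adjusted p of 0.00935 and 0.0164. With the GC-content trend removed as well, SIRT1 was at -0.13 and did not pass (limma adjusted p = 0.230).

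The DREAM complex, which represses cell-cycle genes in quiescent cells, assembles after DYRK1A phosphorylates LIN52. Of its 11 subunits, 10 had a negative log2 fold change (62.4% of all genes) and 1 passed as lower (0.629% of all genes). RBL2 (p130), the pocket protein of DREAM, fell from 60.6 ± 3.99 to 38.8 ± 2.22 TPM (log2 fold change -0.63, limma adjusted p = 0.0444, and with the GC-content trend removed 0.225, or 0.0144 with the block). The pocket protein RBL1 (p107) had -0.79 (limma adjusted p = 0.1004) and the DNA-binding subunit LIN54 -0.78 (limma adjusted p = 0.103), and both passed with the block, at limma adjusted p of 0.00660 and 0.00816. The median of the list was -0.31, and -0.05 with the GC-content trend removed. Of 18 cell-cycle genes that DREAM represses, 17 had a negative log2 fold change, against 62.4% of all genes, none passed, 9 were lower unadjusted (19.4% of all genes) and 11 were lower with the block (25.0% of all genes).

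None of 13 partners and substrates of DYRK2, DYRK3 and DYRK4 passed, with a median of -0.03. Unadjusted, 4 were lower and 2 higher (19.4% and 6.78% of all genes). JUN, an AP-1 subunit that DYRK2 phosphorylates, had 198, 92.6 and 123 TPM in the knockdown replicates and 71.6, 49.4 and 56.5 TPM in the controls. Its groups did not overlap (log2 fold change 1.15, limma adjusted p = 0.0835, and 0.00452 with the block). PCM1, a centriolar satellite protein that DYRK3 binds, had -0.79 with overlapping groups (limma adjusted p = 0.184, and 0.00997 with the block).

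The nearest other CMGC kinases were the CLK and SRPK kinases and PRPF4B, which phosphorylate splicing factors. None of 8 passed, all 8 had a negative log2 fold change (62.4% of all genes) and 4 were lower unadjusted (19.4% of all genes), with a median of -0.53, and -0.26 with the GC-content trend removed. CLK1 had 7.77 ± 1.51 TPM in knockdown and 15.1 ± 0.319 TPM in control (log2 fold change -0.89, limma adjusted p = 0.0526, and 0.00606 with the block). CLK4 had -0.69 (limma adjusted p = 0.0690, and 0.0112 with the block, but -0.27 and 0.146 with the block and the GC-content trend removed). PRPF4B had -0.66 with overlapping groups (limma adjusted p = 0.217, and 0.00804 with the block). Both RBL2 and NFATC3 lost their calls without any library other than knockdown replicate 1, with limma adjusted p up to 0.222.

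**Figure D5:**
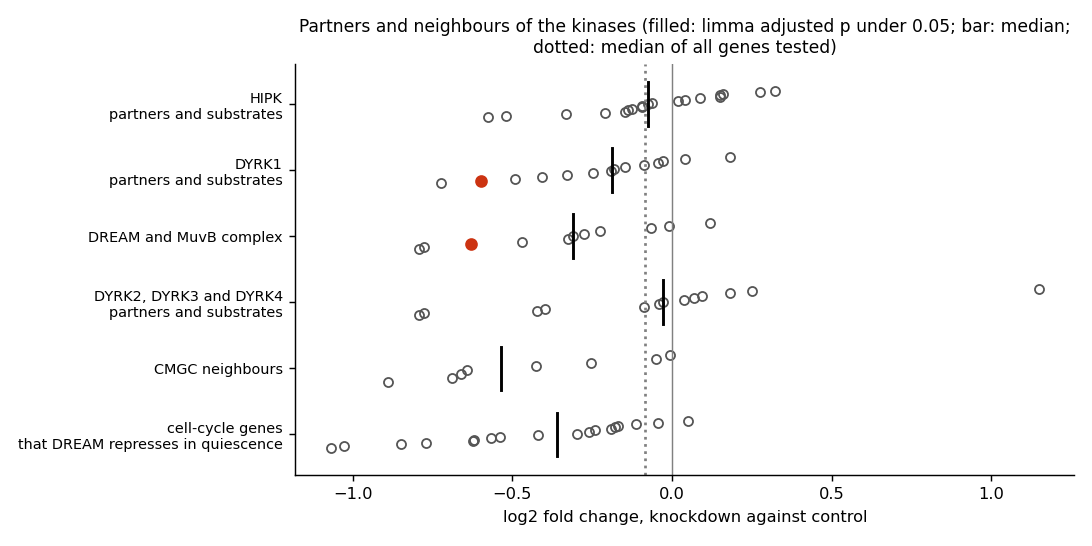
Log2 fold change (horizontal axis) of each tested gene in 6 lists of partners and neighbours of the kinases, filled where the limma adjusted p was under 0.05, with a black bar at each list's median and a dotted line at the median of all genes. NFATC3 and RBL2 are the filled points, and JUN lies apart at 1.15.

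Across the 6 libraries, the pattern of HIPK1 was closer to that of HIPK3 (Pearson r 0.98 on log2(TPM + 1)) than the patterns of DYRK1A (0.89), HIPK2 (0.88), DYRK4 (0.79), DYRK2 (0.78) and DYRK3 (0.77) were, and DYRK1B ran the other way (-0.53). The genes most like HIPK3 among 9426 protein-coding genes averaging 5 TPM or more were S100PBP (0.998), NIPSNAP2 (0.998), WDR48 (0.997), SWAP70 (0.997) and KIF1B (0.997). HIPK1 was the 128th of them. All these values follow the difference between 2 groups of 3 libraries, and 41 genes were above 0.99.

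The targeted circular RNA cannot be read from TPM per gene. Its host gene DCBLD2 had 58.1, 25.9 and 31.6 TPM in knockdown and 71.5, 48.5 and 50.7 TPM in control, with overlapping groups (log2 fold change -0.61, limma adjusted p = 0.253, and 0.0139 with the block, or 0.0514 with the block and the GC-content trend removed). Between 17489570 and 23059351 reads per library were recovered from the TPM values, as lower bounds. Of the liver-lineage markers, KRT8 (2999 to 4413 TPM), KRT18 (1800 to 2555 TPM) and HNF4A (22.9 to 31.3 TPM) were present, whereas ALB, AFP, APOA1 and TTR did not exceed 2.08 TPM in any library. The 9 liver-lineage markers summed to 4830 to 5649 TPM in control and 5840 to 7009 TPM in knockdown, mostly KRT8 and KRT18. APOB went the other way without overlap, at 2.72 to 4.26 TPM in control and 0.902 to 2.71 TPM in knockdown. KRT8, HNF4A and TTR were higher in knockdown without overlap, while ALB, AFP, APOA1, SERPINA1 and KRT18 overlapped between the groups. The 7 markers of blood, endothelium and fibroblasts summed to 97.6 to 119 TPM in control and 115 to 134 TPM in knockdown, mostly CD68. PTPRC, VWF and DCN did not exceed 0.411 TPM. PECAM1, the other endothelial marker, was at 3.63 to 5.64 TPM with overlapping groups. COL1A1 was 3.61 to 11.2 TPM in knockdown and 1.13 to 3.35 TPM in control without overlap (log2 fold change 1.06, limma adjusted p = 0.196), and COL1A2 was listed at 0 in the controls and reached 2.67 TPM in knockdown. The part of these differences in the HIPK values was not tested.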

How the data were processed

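PolyA-Seq libraries of HCCLM3-SR cells, 3 with siRNA against cDCBLD2 and 3 with control siRNA, were grouped by their sample titles. The authors deposited TPM per gene. The submitters' processing notes name fastp 0.20.1, HISAT2 2.1.0, StringTie 2.0 and hg38, and the annotation and strand setting are not given in the sources used here. The paper's DESeq2 test needs counts and was not run. The members and all gene lists were chosen with earlier results of these data known.

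The 13980 genes that averaged 1 TPM or more were put on the log2(TPM + 1) scale and fitted in limma 3.58.1 (R 4.3.3), with a trend of variance on mean level, group as the only term and Benjamini-Hochberg adjustment. The fit was tested on simulated data. Single values were compared by exact two-sided permutation tests. Reads were recovered from the ratios of TPM between libraries. Of 17285 genes above 0 in all libraries, 99.6% gave whole reads within 0.02, against 0.231% with library factors moved at random by up to 10%. Limma-voom used genes with at least 10 recovered reads in 3 libraries.

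Same-numbered libraries deviated together from their group means (r 0.56, 0.34 and 0.36 for replicates 1, 2 and 3), so the numbers in the sample titles were taken to pair them. The highest r of each knockdown library with a control library of another number was -0.38, 0.21 and 0.25. Replicates 2 and 3 were thus less clearly told apart. What the numbers stand for is not given. Transcript GC content, length, positions and microRNA matches came from GENCODE 29 (GRCh38), and the authors may have used another. In control replicate 1, DYRK3 had 275 recovered reads at 4.91 TPM and HIPK3 had 577 at 10.6 TPM. The transcript used here has 2163 bases for DYRK3 and 7408 for HIPK3. The DYRK3 transcript counted by the authors may thus be longer than the one used here. Of the deposited genes, 25655 matched by symbol, 1562 more by older names and 11420 not, and 94.2% of the tested genes had a GC content. Trends were removed per library by loess (span 0.5).

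The lists were HIPK partners and substrates, DYRK1 partners and substrates, the DREAM and MuvB complex, DYRK2, DYRK3 and DYRK4 partners and substrates, CMGC neighbours, and cell-cycle genes that DREAM represses. The genes named were the 8 members, the 3 tested genes of each list with the largest absolute log2 fold change (the cell-cycle list by counts alone), the 5 protein-coding genes averaging 5 TPM or more and most correlated with HIPK3, and DCBLD2. The values of a further list gene that this rule names are not reported here. LEF1, NFATC1, NFATC4, RCAN2, GYS2 and HIPK4 were below the filter. Alternatives were upper-quartile scaling, a pseudocount of 0.1, other filters, the replicate block, GC-content and length offsets, limma-voom and leaving out each library. Python 3.11.15, numpy 2.4.6, pandas 2.3.3, numba 0.67.0 and matplotlib 3.10.9 were used.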

Additional observations from a re-analysis of the deposited data

How the results depend on the processing

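The 3 HIPK genes kept a negative log2 fold change under all 17 alternatives, though HIPK2 shrank to -0.06 with the length offset (limma adjusted p = 0.718, and 0.560 with the block). DYRK1B kept a positive and DYRK3 a negative log2 fold change under all that held them. The DYRK3 offsets rest on a transcript of 2163 bases, which may be shorter than the one counted, so its sign under them is uncertain. DYRK1A and DYRK3 were not in the fit of genes averaging 5 TPM or more. HIPK1 no longer passed with no filter on low values (-0.79), the GC-content offset (-0.54) or the length offset (-0.49), and with the block it passed under both offsets (limma adjusted p of 0.00678 and 0.00732). HIPK2 passed with the replicate block (-0.47), with the block and GC-content offset (-0.37) and with the block on recovered reads (-0.38). The description of HIPK3 moved to -0.69 with the GC-content offset and to -0.81 with the length offset, with or without the block. The sign turned with the GC-content offset for DYRK1A (0.034), DYRK2 (0.175) and DYRK4 (0.150), and with the length offset for DYRK1A (0.144), DYRK2 (0.134) and DYRK4 (0.0186), the block making no difference. On recovered reads DYRK4 was at 0.00208, or 0.00179 with the block. With the block on recovered reads DYRK1A (-0.33) and DYRK1B (0.51) passed, beside 3081 genes lower and 2627 higher of 15018 in that fit. Leaving out 1 library gave -0.85 to -0.72 for HIPK1 and -0.65 to -0.36 for HIPK2, and only without knockdown replicate 1 did any gene pass. In the other 5 such fits limma called no gene, with 2161 to 2803 genes at an unadjusted p under 0.05.

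Members lower numbered 2, HIPK1 and HIPK3. HIPK3 is in every such count above 0, and since its values chose the family its part is a description. They numbered 0 with no filter, 1 (HIPK3) with the GC-content offset, 1 with the length offset, 3 with the block, 3 with the GC-content offset and the block, 4 on recovered reads with the block and 0 to 3 with 1 library left out, and 1 was higher on recovered reads with the block. All genes lower (88) and higher (35) became 62 and 59 with upper-quartile scaling, 1 and 3 with no filter, 238 and 83 at a mean of 5 TPM, 3501 and 1390 with the replicate block, 15 and 20 with the GC-content offset, 1666 and 1542 with that offset and the block, 80 and 164 with the length offset, 2230 and 2341 with that offset and the block, 259 and 193 on recovered reads, 3081 and 2627 on recovered reads with the block, and 0 to 2771 and 0 to 649 with 1 library left out. Fits held 13980 genes, or 25278 with no filter, 10245 at a mean of 5 TPM, 13163 with an offset and 15018 on recovered reads. The share of higher among called genes was 28.5% in the fit reported, 48.8% with upper-quartile scaling, 57.1% with the GC-content offset and 67.2% with the length offset. List genes lower (2) numbered 1 with upper-quartile scaling, 0 with no filter, 5 at a mean of 5 TPM, 22 with the block, 0 with the GC-content offset, 15 with that offset and the block, 17 with the length offset and the block, 4 on recovered reads, 22 on recovered reads with the block and 0 to 19 with 1 library left out. List genes higher (0) numbered 6 with the block, 5 with the GC-content offset and the block, 8 with the length offset and the block, 11 on recovered reads with the block and 0 to 2 with 1 library left out. EP300 turned to 0.00322 with the length offset. Of 271 values of the 16 partner genes named, 182 kept direction and side of the threshold. The cause of these differences was not tested.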
